A study of Mus musculus with 16 samples.

Results

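The genes described here are 8 genes of M cells and of the follicle-associated epithelium, namely Gp2, Spib, Sox8, Tnfaip2, Ccl20, Ccl9, Tnfrsf11a and Tnfrsf11b, which were found by symbol among the 46078 genes of the count table. Sequencing of mucosal RNA covered 16 C57Bl/6 mice in 4 groups of 4, female Slfn3KO, female WT, male Slfn3KO and male WT, none with a treatment in the labels. The labels call the tissue intestinal mucosa, and the study's methods place it in the ileum. The labels gave every mouse an age of 8 weeks, the study's methods give an older age, and the methods describe Slfn3KO and WT mice as littermates. The sources used here describe the Slfn3 allele only by its name and genotyping primers, and they do not say whether the sequenced mice had been pair-fed, from which stretch of the ileum each piece of mucosa came or whether a Peyer's patch was included.

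M cells are epithelial cells that carry particles and bacteria from the gut lumen to the immune cells beneath them. They lie in the follicle-associated epithelium, the layer of epithelial cells that covers the lymphoid follicles of Peyer's patches. Their formation depends on RANKL (encoded by Tnfsf11), a ligand made by stromal cells under this epithelium, which binds the receptor RANK (Tnfrsf11a) and acts through NF-kB. The transcription factors Spi-B (Spib) and Sox8 are needed for M cells to mature, and Gp2 is a receptor for bacteria on the surface of the mature cell. Cd79a, a component of the B cell receptor, is used as a measure of the B cells that fill the follicles. In RNA of a whole tissue, fewer cells of a type and less RNA per cell cannot be told apart.

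The 250 bases before the RefSeq start of 4 of the genes are shown because Gp2, Spib and Sox8 had the lowest fold changes of the 8 and because the Ccl20 sequence holds most of the motifs searched. The coordinates are on build GRCm38.p6, at chr7:119459273-119459522 (minus strand) for Gp2, chr7:44532072-44532321 (minus strand) for Spib, chr17:25570687-25570936 (minus strand) for Sox8 and chr1:83116516-83116765 (plus strand) for Ccl20. Capitals mark matches to the ETS motif GAGGAAG, to the shorter ETS motif GGAAGT, which can overlap the former, to the SOX motif ACAAAG and to the NF-kB type motif (GGGAA, any 3 bases, then CC) on both strands, and to the TATA box TATAAA on the strand of the gene.
Gp2: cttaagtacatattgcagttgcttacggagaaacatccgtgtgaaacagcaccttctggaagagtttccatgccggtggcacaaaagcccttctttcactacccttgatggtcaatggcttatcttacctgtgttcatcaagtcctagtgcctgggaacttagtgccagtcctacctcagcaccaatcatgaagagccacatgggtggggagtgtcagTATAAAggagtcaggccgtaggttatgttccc
Spib: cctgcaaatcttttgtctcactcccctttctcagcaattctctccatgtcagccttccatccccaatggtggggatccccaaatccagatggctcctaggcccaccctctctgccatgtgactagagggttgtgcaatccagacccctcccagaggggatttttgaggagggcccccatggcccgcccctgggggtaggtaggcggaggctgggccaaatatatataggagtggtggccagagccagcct
Sox8: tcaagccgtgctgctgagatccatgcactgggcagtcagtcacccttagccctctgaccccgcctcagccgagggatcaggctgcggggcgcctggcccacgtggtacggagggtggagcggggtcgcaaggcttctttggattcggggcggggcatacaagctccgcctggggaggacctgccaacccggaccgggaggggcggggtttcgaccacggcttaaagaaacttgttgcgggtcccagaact
Ccl20: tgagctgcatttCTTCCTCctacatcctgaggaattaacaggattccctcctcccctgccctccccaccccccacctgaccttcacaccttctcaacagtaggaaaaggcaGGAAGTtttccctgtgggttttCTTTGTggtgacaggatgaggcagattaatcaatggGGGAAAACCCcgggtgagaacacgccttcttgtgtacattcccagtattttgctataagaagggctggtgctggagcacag
The Gp2 sequence held TATAAA between 32 and 27 bases before the start, and 7.59% of the 32851 promoters of the same length held it at any place. The Ccl20 sequence held both ETS motifs, of which GAGGAAG was found in 10.6% and GGAAGT in 19.7% of all promoters. It also held the SOX motif, found in 16.5%, and the NF-kB type motif, found in 4.94%. None of these letters was found in the windows of Spib and Sox8. Of the other members, the Ccl9 window held the shorter ETS motif and the TATA box, and those of Tnfaip2 and Tnfrsf11a held none of the motifs. A match of this kind is a description of the letters and not a site of binding.

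The counts summed to 20823279 in the shallowest and 30813117 in the deepest library, and a count of 0 in a library allows up to 3 counts. Slfn3 itself had 0 counts in 6 of 8 Slfn3KO mice and 1 and 2 counts in the other two, and from 0 to 19 counts in WT mice, with 0 in male WT 4. The sex transcripts Xist and Ddx3y followed the label in 12 libraries and went against it in 4, which are the libraries labelled WT 3 and 4 of both sexes. These same 4 libraries had the highest Cd79a of all 16, from 18.6 to 88.9 CPM (counts scaled to library size), while the other 4 WT mice ranged from 0.736 to 13.4 CPM and the Slfn3KO mice from 0.252 to 15.004 CPM. Results that rest on these libraries are given with and without them. The summed level of 12 epithelial markers was between 25568 and 53912 CPM in all mice. The mice of a group carry separate numbers in the labels, and no pair of libraries of a group was alike within sampling noise.

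Per kilobase of exon (RPKM), the 8 genes differed widely in level. Tnfrsf11a was the highest, with a median of 14.6 RPKM and a range from 12.2 to 17.7 RPKM, and was above Ccl9 in each of the 16 mice. Ccl9 and Spib had medians of 3.94 and 3.91 RPKM and could not be ordered, since Ccl9 was the higher in 8 of 16 mice. Ccl20 followed with 1.97 RPKM and was below Spib in 13 mice, and Tnfaip2 with 0.973 RPKM was below Ccl20 in 14 mice. Tnfrsf11b and Gp2 had medians of 0.374 and 0.270 RPKM and were not ordered either, as Tnfrsf11b was the higher in 9 of 16 mice. Sox8 was the lowest, with a median of 0.0439 RPKM, and lay below Gp2 in all 16 mice. The ranges of neighbours in this order overlapped except for those of Tnfrsf11a and Ccl9.

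**Figure D1:**
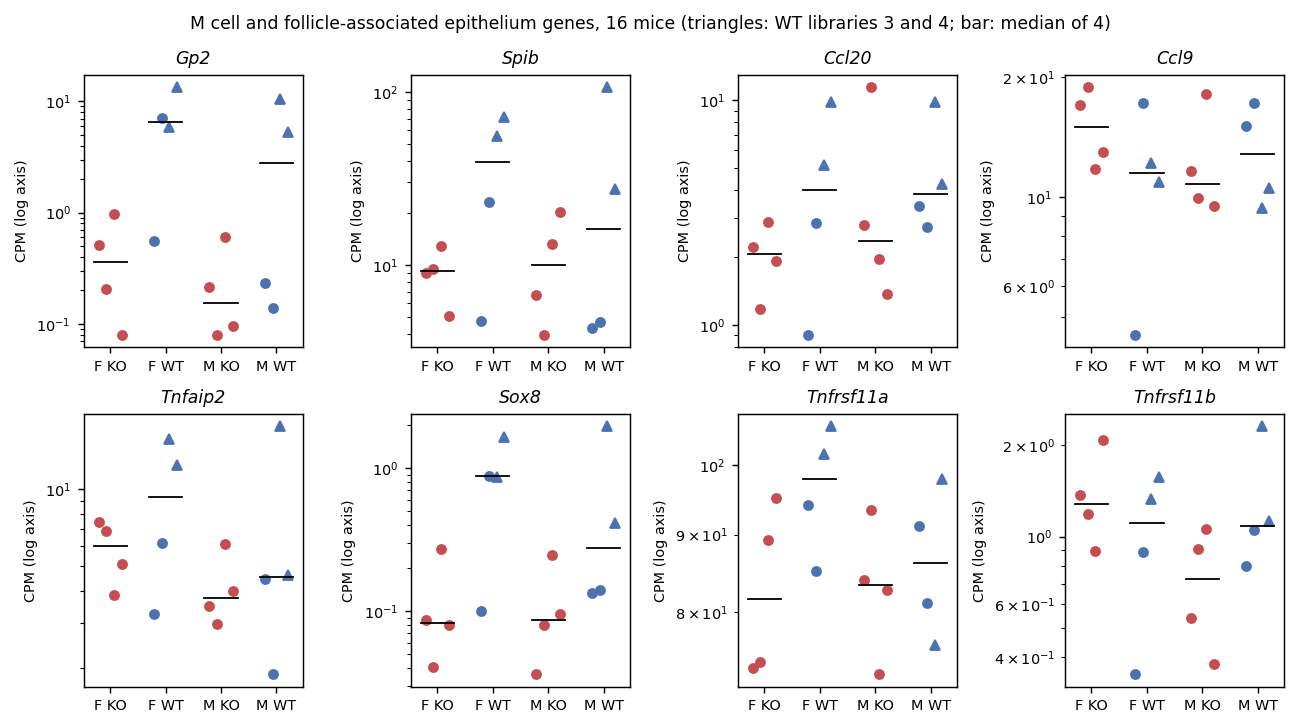
CPM of the 8 genes in each mouse on log axes, by labelled sex (F female, M male) and genotype (KO is Slfn3KO), with bars at the median of 4 mice and triangles for the WT libraries 3 and 4. For Gp2, Spib and Sox8, 5 of the 8 WT mice lie above every Slfn3KO mouse, and the other 3 lie among them.

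Gp2 (ENSMUSG00000030954, mm10 chr7:119442544-119459272, minus strand), the receptor of mature M cells, showed the lowest fold change of the 8 genes. In Slfn3KO females it was 0.516, 0.204, 0.971 and 0.0802 CPM, and in Slfn3KO males 0.216, 0.0793, 0.600 and 0.0950 CPM. Those values come from 2 to 25 counts per mouse. WT females had 0.552, 7.11, 5.84 and 13.5 CPM, and WT males 0.234, 0.140, 10.5 and 5.36 CPM. Thus 5 WT mice were above every Slfn3KO mouse, and 3 WT mice (female 1, male 1 and male 2) had levels within the range of the Slfn3KO mice. WT mice had a mean of 5.40 ± 4.96 CPM (SD, n = 8) and Slfn3KO mice one of 0.345 ± 0.322 CPM (SD, n = 8). With the labelled sex as a covariate the log2 fold change of Slfn3KO against WT was -3.94 (SE 0.87), a 15.3-fold lower fitted level. The quasi-likelihood test of edgeR gave adjusted p = 0.327 over 14822 genes. Gp2 is also known from pancreatic acinar cells. Of 12 acinar markers 10 had 3 counts or fewer in every mouse, among them Amy2a5 and Cela3b with 0 counts in all 16. The other two, Cela1 and Clps, had positive log2 fold changes of 0.08 (SE 0.14) and 1.03 (SE 0.41), and the 12 markers summed to 37.3 to 76.9 CPM in Slfn3KO and 11.5 to 57.4 CPM in WT mice. Their part in the Gp2 level was not tested.

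Sox8 (ENSMUSG00000024176, mm10 chr17:25565892-25570686, minus strand), a transcription factor of maturing M cells, was close to the limit of counting. Slfn3KO females had 2, 1, 7 and 2 counts and Slfn3KO males 1, 2, 7 and 2 counts. WT females had 2, 21, 21 and 38 counts and WT males 4, 4, 58 and 10 counts. The mice above every Slfn3KO mouse in Sox8 numbered 5, and all were WT mice. WT mice had a mean of 0.773 ± 0.721 CPM (SD, n = 8), and Slfn3KO mice one of 0.117 ± 0.0906 CPM (SD, n = 8). The log2 fold change was -2.65 (SE 0.67, adjusted p = 0.327 by edgeR).

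Spib (ENSMUSG00000008193, mm10 chr7:44525995-44532071, minus strand) encodes Spi-B, an ETS transcription factor used by M cells and also by B cells and plasmacytoid dendritic cells. Slfn3KO females had 8.98, 9.44, 12.8 and 5.05 CPM and Slfn3KO males 6.67, 3.93, 13.3 and 20.2 CPM. WT females had 4.72, 22.9, 55.8 and 71.5 CPM and WT males 4.34, 4.70, 106.6 and 27.6 CPM. As for Gp2, 5 WT mice were above every Slfn3KO mouse, and the 3 lowest WT mice were below 7 of the 8 Slfn3KO mice. The log2 fold change was -1.90 (SE 0.65, adjusted p = 0.327 by edgeR). The summed level of 5 markers of plasmacytoid dendritic cells was 75.1 to 178.6 CPM in Slfn3KO and 65.5 to 129.8 CPM in WT mice, whereas the 15 B cell and follicle markers summed to 6.67 to 240.4 CPM in Slfn3KO and 13.7 to 1689 CPM in WT mice. The part of either cell type in the Spib level was not tested.

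Tnfaip2 (ENSMUSG00000021281, mm10 chr12:111442469-111455018, plus strand), which encodes the membrane remodelling protein M-Sec, differed less between the genotypes. It was 7.39, 6.86, 3.84 and 5.09 CPM in Slfn3KO females and 3.49, 2.97, 6.10 and 3.99 CPM in Slfn3KO males. WT females had 3.26, 6.13, 15.7 and 12.4 CPM and WT males 4.47, 1.89, 17.5 and 4.61 CPM. Only the WT libraries female 3, female 4 and male 3 were above every Slfn3KO mouse. The log2 fold change was -0.74 (SE 0.40, adjusted p = 0.482 by edgeR).

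Ccl20 (ENSMUSG00000026166, mm10 chr1:83116766-83119167, plus strand) is the chemokine by which the follicle-associated epithelium attracts cells with the receptor Ccr6, among them B cells. Slfn3KO females had 2.24, 1.19, 2.87 and 1.93 CPM and Slfn3KO males 2.77, 11.5, 1.98 and 1.38 CPM. WT females had 0.904, 2.83, 5.18 and 9.81 CPM and WT males 3.40, 2.73, 9.85 and 4.24 CPM. The highest of all 16 was male Slfn3KO 2, and the lowest was female WT 1. The log2 fold change was -0.69 (SE 0.51, adjusted p = 0.612 by edgeR). It ranged from -1.26 to -0.36 as each mouse was left out, with the lowest value reached without male Slfn3KO 2.

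Ccl9 (ENSMUSG00000019122, mm10 chr11:83572919-83578636, minus strand), another chemokine of this epithelium and a ligand of Ccr1, was the 1 member with a positive fold change. It ranged from 9.50 to 18.9 CPM in Slfn3KO and from 4.52 to 17.2 CPM in WT mice, and the genotypes overlapped over most of this range. The log2 fold change was 0.18 (SE 0.24, adjusted p = 0.768 by edgeR). Ccl9 is the only member on the chromosome of Slfn3, which lies at mm10 chr11:83191330-83215154. Whether this position bears on its level was not tested. In Ccl9, 1.97% of the 50-base stretches of the transcript also occur in other genes, so some reads may not have been counted. The share was higher for Cd79a (8.31%) and Slfn3 (15.6%), and it was 0.573% for Tnfrsf11a and 0.314% for Spib.

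Of the receptors of the RANKL axis, Tnfrsf11a (ENSMUSG00000026321, mm10 chr1:105780718-105847981, plus strand), which encodes RANK, averaged 91.7 ± 10.3 CPM (SD, n = 8) across WT mice, against 83.1 ± 8.97 CPM (SD, n = 8) across Slfn3KO mice, and 3 WT mice were above every Slfn3KO mouse. Its highest level was 1.46 times its lowest over all 16 mice, while that ratio was 170.0 for Gp2 and 27.2 for Spib. The log2 fold change of Tnfrsf11a was -0.14 (SE 0.08, adjusted p = 0.523 by edgeR). Tnfrsf11b (ENSMUSG00000063727, mm10 chr15:54250619-54278484, minus strand) encodes osteoprotegerin, a soluble decoy for RANKL. Its levels were from 0.380 to 2.09 CPM in Slfn3KO and from 0.351 to 2.31 CPM in WT mice, and its log2 fold change was -0.22 (SE 0.36, adjusted p = 0.813 by edgeR). This pooled value joins opposite signs, 0.41 (SE 0.45) in females and -0.86 (SE 0.45) in males by the labels. These were 1.13 (SE 0.53) and -0.34 (SE 0.48) without the WT libraries 3 and 4, which go against their sex label.

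Over the 8 genes, none passed an adjusted p under 0.05 with a change of at least 1.5-fold in the pooled comparison, and neither did any other of the 14822 genes tested by edgeR (0%). At an unadjusted p under 0.05, 3 of 8 were lower in Slfn3KO mice (Gp2, Sox8 and Spib) and none was higher, while 1770 of all genes passed, 1052 of them lower (7.1%). These 3 genes are in lists of changed genes that the study drew from these same mice, so their direction is not independent evidence. The median log2 fold change was -0.71 over the 8 genes and 0.00 over all genes, and 7 of 8 were negative. DESeq2's Wald test called 55 genes, 40 of them lower (0.27%), and among these were Gp2 with an adjusted p of 0.00059 and Sox8 with an adjusted p of 0.0369. In simulated counts for this comparison, 16 of 193 calls by DESeq2 and 2 of 174 calls by edgeR were false. Those counts were drawn for each gene independently, so these rates may not hold for the real counts.

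In females alone, no gene of 14064 passed the adjusted threshold by edgeR (0%), and 2410 passed an unadjusted p under 0.05, of which 1204 were lower (8.56%). Gp2 and Spib were 2 of the 7 members tested that were lower at this level, with log2 fold changes of -3.92 (SE 0.96, adjusted p = 0.236) and -2.10 (SE 0.69, adjusted p = 0.247). DESeq2 called 506 genes in females, 345 of them lower (2.45%), and among these were Gp2 (adjusted p = 0.00131) and Spib (adjusted p = 0.0299). Female WT 3 and 4, which go against their sex label, are part of these fits. With them left out, Spib was at -0.63 (SE 0.59, adjusted p = 0.522 by edgeR) and Gp2 at -3.11 (SE 1.04, adjusted p = 0.158). In simulated counts for females, drawn in the same way, 67 of 215 calls by DESeq2 were false. In males no gene of 14124 was called by edgeR (0%), 14 were called by DESeq2 and 542 had an unadjusted p under 0.05, among them 279 lower (1.98%), but none of the 6 members tested. Spib had a log2 fold change of -1.73 in males (SE 1.04, adjusted p = 0.925 by edgeR), and it was -0.12 (SE 0.79) without male WT 3. With the replicate number as a block, an uncertain pairing of the male mice, Spib was at -0.75 (SE 0.62, adjusted p = 0.807 by edgeR). In that fit Tnfrsf11b, at -0.84 (SE 0.32, adjusted p = 0.743), was the 1 member of 6 lower at an unadjusted p under 0.05, beside 457 of all genes (3.24%).

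Gp2 in males and Sox8 in both sexes had too few counts to be tested in the single sex fits. Where all 4 groups were fitted together, the log2 fold change of Gp2 was -3.91 in females (adjusted p = 0.240 by edgeR) and -3.96 in males (adjusted p = 0.895), and that of Sox8 was -2.82 and -2.48. The female minus male difference was 0.05 for Gp2 (SE 1.42, adjusted p = 0.990 by edgeR), -0.35 for Sox8 (SE 1.42) and -0.39 for Spib (SE 1.30). The member with the smallest p for a difference was Tnfrsf11b, with a difference of 1.27 (SE 0.66, adjusted p = 0.464 by edgeR). For the difference between the sexes edgeR called no gene (0%) and DESeq2 called 24, with 1639 genes at an unadjusted p under 0.05 by edgeR, 779 of them with a negative difference (5.26%) and no member among them. The WT groups of both labelled sexes each hold 2 of the 4 libraries that go against their sex label. Without these libraries, with 2 WT mice left in each sex, the difference was -3.54 for Gp2 (SE 1.60, adjusted p = 0.185 by edgeR), -1.90 for Spib (SE 0.95, adjusted p = 0.226) and 1.48 for Tnfrsf11b (SE 0.72, adjusted p = 0.212), and Cd79a itself differed by -4.43 (SE 1.75). Gp2 was then 1 of 7 members tested with a negative difference at an unadjusted p under 0.05, beside 12.5% of all genes. In the same 12 mice edgeR called 359 of 15093 genes for a difference between the sexes, none of them a member. With standard errors of this size the data do not show that the sexes were alike. No member separated the genotypes without overlap, neither in all mice, where 0.0337% of all genes did, nor in females (7.89%) or males (2.38%).

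Without the WT libraries 3 and 4 most of these fold changes were closer to 0 or turned. Gp2 kept a log2 fold change of -1.85 (SE 0.91, adjusted p = 0.761 by edgeR), while Spib, Ccl20, Tnfaip2 and Tnfrsf11b were 0.22, 0.33, 0.33 and 0.33, and Sox8 did not pass the filter. None of the 7 members tested was then lower at an unadjusted p under 0.05, against 3.1% of all genes. Of the 4 WT mice that remain, 3 had Gp2 between 0.140 and 0.552 CPM, and female WT 2 had 7.11 CPM. In females alone, with 2 WT mice left, Gp2 was at -3.11 (SE 1.04, adjusted p = 0.158 by edgeR). Because these 4 libraries carry the highest Cd79a and go against their sex labels, the share of the difference that rests on them cannot be told apart from what else sets these libraries apart.

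**Figure D2:**
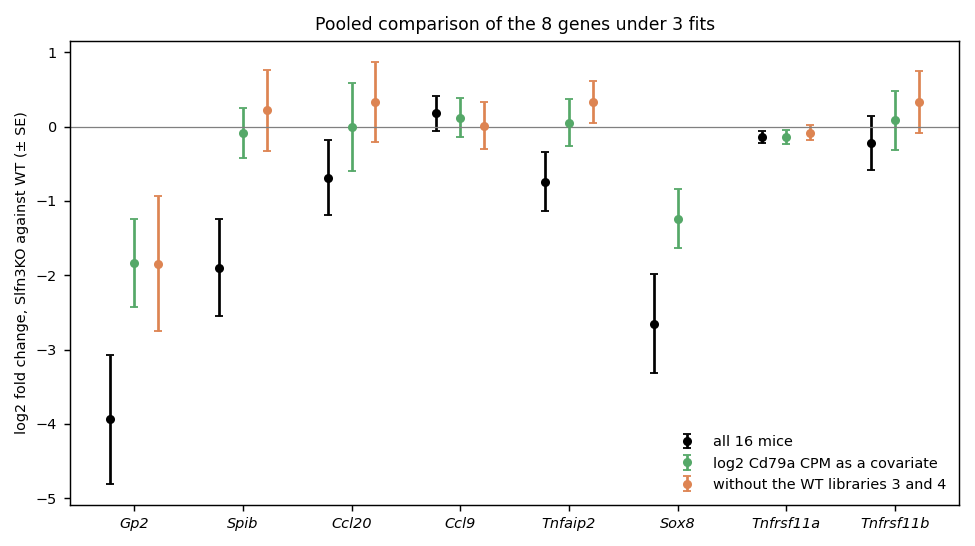
Log2 fold change of Slfn3KO against WT for the 8 genes, with bars of 1 standard error, over all 16 mice, with log2 Cd79a CPM as a covariate and without the WT libraries 3 and 4. Gp2 stays below 0 in the 3 fits (-3.94, -1.84 and -1.85) and Spib lies at -1.90, -0.09 and 0.22, while Sox8 has 2 values (-2.65 and -1.24).

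The levels of 4 of the 8 genes followed Cd79a over the 16 mice. Spib followed it most closely, with Pearson r = 0.934 and Spearman rho = 0.912, each with a permutation p of 1e-05, the smallest that 100000 resamples can give, and adjusted p = 0.00040 and 0.00065 over 14821 genes. For Sox8 r was 0.861 (permutation p = 2e-05, adjusted p = 0.00069) and rho 0.774 (p = 0.00071, adjusted p = 0.0188). For Gp2 r was 0.823 (permutation p = 0.00017, adjusted p = 0.0043) and rho 0.753 (p = 0.00113, adjusted p = 0.0271). Tnfaip2 had r = 0.770 (permutation p = 0.00052, adjusted p = 0.0105) and rho = 0.682 (p = 0.00445, adjusted p = 0.0734), so that only its Pearson value passed. Over all genes, 995 of 14821 passed with a positive r (6.71%) and 710 with a positive rho (4.79%). Without the 2 mice farthest from the median Cd79a, male Slfn3KO 1 and male WT 3, r was 0.965 for Spib, 0.808 for Sox8, 0.808 for Gp2 and 0.710 for Tnfaip2.

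For Ccl20 the relation did not pass, with r = 0.423 (permutation p = 0.103, adjusted p = 0.397) and rho = 0.368 (p = 0.160, adjusted p = 0.511). Tnfrsf11b had r = 0.376 (permutation p = 0.151, adjusted p = 0.479) and rho = 0.394 (p = 0.131, adjusted p = 0.468). Tnfrsf11a had r = 0.169 (permutation p = 0.527, adjusted p = 0.812) and rho = 0.185 (p = 0.492, adjusted p = 0.794). Ccl9 was the 1 member with a negative r, of -0.147 (permutation p = 0.598, adjusted p = 0.852), and its rho was -0.338 (p = 0.198, adjusted p = 0.558). Leaving out the 2 farthest mice gave r = 0.323 for Ccl20, 0.092 for Tnfrsf11b, 0.346 for Tnfrsf11a and -0.104 for Ccl9.

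**Figure D3:**
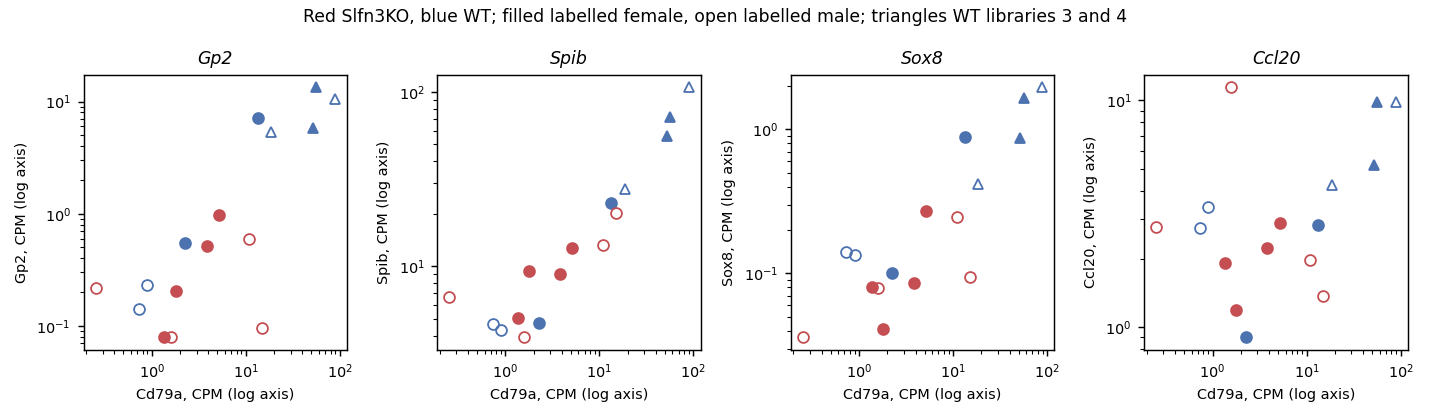
CPM of Gp2, Spib, Sox8 and Ccl20 against CPM of Cd79a in 16 mice, both on log axes, in red for Slfn3KO and blue for WT, filled for mice labelled female and open for male, with triangles for the WT libraries 3 and 4. Spib rises with Cd79a in both genotypes, while the male Slfn3KO mice 3 and 4 lie low for Gp2 at 10.9 and 15.004 CPM of Cd79a.

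The relation differed in strength when each genotype was taken on its own, given here as a description of 8 mice each. Gp2 had r = 0.965 in WT mice and 0.317 in Slfn3KO mice, and Tnfaip2 had 0.905 and 0.265. Spib had r = 0.986 in WT and 0.764 in Slfn3KO mice, and Sox8 0.934 and 0.674. The range of Cd79a was narrower in Slfn3KO mice, and the difference between these values of r was not tested. With the means of the 4 groups taken out, r was 0.806 for Gp2, 0.920 for Spib, 0.857 for Sox8 and 0.762 for Tnfaip2. Without the WT libraries 3 and 4, r was 0.523 for Gp2, 0.821 for Spib, 0.618 for Sox8 and 0.455 for Tnfaip2, and that of Ccl20 was -0.227.

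**Figure D4:**
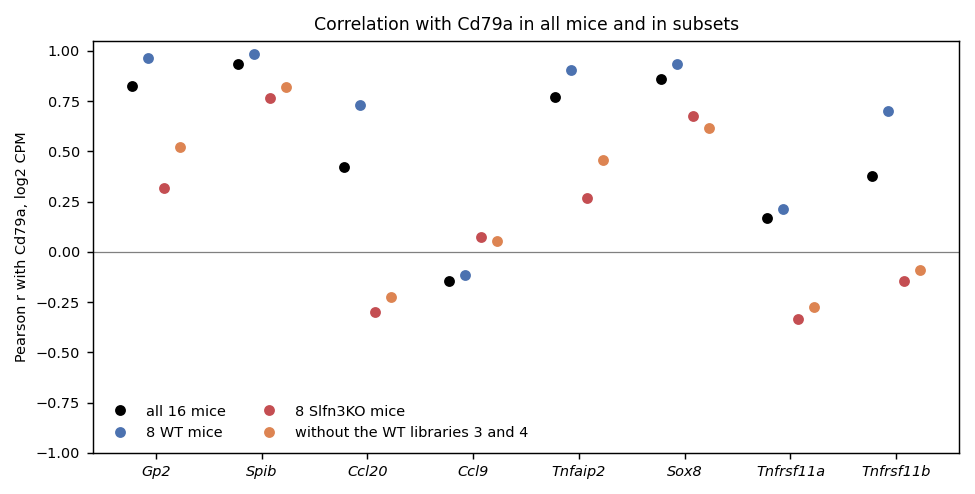
Pearson r of log2 CPM with log2 Cd79a CPM for each of the 8 genes, over all 16 mice, the 8 WT mice, the 8 Slfn3KO mice and the 12 mice without the WT libraries 3 and 4. Spib lies above 0.76 in the 4 sets of mice and Gp2 goes from 0.965 in WT to 0.317 in Slfn3KO mice.

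Mice of both genotypes with like Cd79a are set side by side here, picked after their values were seen and given with no test. Female WT 2 and male WT 4 had 13.4 and 18.6 CPM of Cd79a and 7.11 and 5.36 CPM of Gp2. Male Slfn3KO 3 and 4 had 10.9 and 15.004 CPM of Cd79a and 0.600 and 0.0950 CPM of Gp2. In the same 4 mice Spib was 22.9, 27.6, 13.3 and 20.2 CPM and Sox8 was 21, 10, 7 and 2 counts. Gp2 was thus the more unlike between the genotypes in this set. Female WT 2 and male WT 4, the latter against its sex label, had 409 and 401 CPM of Xist. Male Slfn3KO 3 and 4 had 0.247 and 0.237 CPM, so genotype and sex transcripts cannot be told apart in this set. At lower Cd79a the comparison depended on the mice picked, and Gp2 rested on few counts. Female WT 1 had 2.26 CPM of Cd79a and 0.552 CPM of Gp2 (11 counts), and female Slfn3KO 1 had 3.83 and 0.516 CPM (12 counts). Female Slfn3KO 2, male Slfn3KO 2 and female Slfn3KO 4 had 1.80, 1.59 and 1.36 CPM of Cd79a. Their Gp2 was lower, at 0.204, 0.0793 and 0.0802 CPM (5, 2 and 2 counts). Male Slfn3KO 1 had 0.252 CPM of Cd79a and 0.216 CPM of Gp2 (6 counts). Male WT 1 and 2, with 0.901 and 0.736 CPM of Cd79a, had 0.234 and 0.140 CPM of Gp2, within the range of the Slfn3KO mice. With log2 Cd79a CPM as a further covariate over all 16 mice, the log2 fold change was -1.84 for Gp2 (SE 0.59, adjusted p = 0.811 by edgeR), -1.24 for Sox8 (SE 0.40, adjusted p = 0.811) and -0.09 for Spib (SE 0.34, adjusted p = 0.939). These 2 members lower at an unadjusted p under 0.05 stand beside 2.53% of all genes, none of which passed the adjusted threshold. With Ms4a1, another B cell gene, in place of Cd79a, the values were -1.80 for Gp2 and -1.32 for Sox8.

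The genes most like each member in log2 CPM over the 16 mice are given as a description, without p. For Gp2 these were Kcnj15 (r = 0.948), Msln (0.942) and Sox8 (0.936). The latter was in turn most like Ncf4 (0.936), Gp2 and A630001G21Rik (0.935). For Spib they were Btk (0.980), H2-DMb2 (0.978) and Cd83 (0.977), 3 genes known from B cells and antigen presenting cells. Tnfaip2 was most like Scarb1 (0.960), Kctd1 (0.957) and Iqsec1 (0.949). Ccl20 was most like Malt1 (0.828), Klf7 (0.816) and Tmem245 (0.763), and Ccl9 most like Uox (0.928), Ascl2 (0.910) and Mettl8 (0.908). Tnfrsf11a went with Aldh1l1 (0.810), Diaph1 (0.804) and Gm15655 (0.795), and Tnfrsf11b with Cyp51 (0.908), Slc10a2 (0.902) and Atp11a (0.900). Slc10a2 is the bile acid transporter of the terminal ileum. Among the 28 pairs of members, Gp2 with Sox8 had the highest r, followed by Spib with Sox8 (0.883) and Gp2 with Spib (0.867). Ccl9 had r between -0.106 and 0.073 with Gp2, Spib, Sox8, Ccl20 and Tnfaip2, and -0.465 with Tnfrsf11a.

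Of 18 other genes known from M cells and this epithelium, 17 were tested and none passed the adjusted threshold in the pooled comparison. Their log2 fold changes were negative for 15 of 17, with a median of -0.35, and 4 were lower and none higher at an unadjusted p under 0.05, beside 7.1% of all genes lower. Without the WT libraries 3 and 4, 10 of 17 were negative with a median of -0.05, and none was lower at that level. With the Cd79a covariate 1 was lower and the median was -0.07. The lowest were Psg18, with -2.41 (SE 0.76, adjusted p = 0.327 by edgeR), and Clu, which encodes clusterin, with -2.37 (SE 0.93, adjusted p = 0.336). Psg18 was from 0.142 to 0.722 CPM in Slfn3KO and from 0.0502 to 4.99 CPM in WT mice, and Clu from 1.51 to 42.0 CPM and from 1.33 to 174.5 CPM, so both overlapped. The 2 highest were Atoh8 with 0.39 and Esrrg with 0.38. With log2 Cd79a CPM as a covariate Psg18 was at -0.54 and Clu at -0.06. Calcb, named after its values were seen, was at -2.23 (SE 0.51, adjusted p = 0.327 by edgeR) and at -1.37 with the covariate, and DESeq2 gave it an adjusted p of 0.0111 over all mice. In 7 of the 17 genes r with Cd79a passed with a positive sign, beside 6.71% of all genes, among them Clu with r = 0.941.

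Of 25 genes of RANKL and NF-kB signalling, all were tested, 24 had a negative log2 fold change and none passed the adjusted threshold. The median was -0.22, and 11 were lower and none higher at an unadjusted p under 0.05, beside 7.1% of all genes lower. Without the WT libraries 3 and 4 none was lower at that level, 22 of 25 were negative and the median was -0.11. With the Cd79a covariate 1 was lower, Ltb, and the median was -0.16. Tnfsf11, the gene of RANKL, was 0 to 0.847 CPM in Slfn3KO and 0.0351 to 2.45 CPM in WT mice, with a log2 fold change of -2.09 (SE 0.82, adjusted p = 0.336 by edgeR) that was -0.24 with the Cd79a covariate. Ltb, the gene of lymphotoxin beta, was at -2.06 (SE 0.59, adjusted p = 0.327 by edgeR), and at -0.66 with the covariate, and DESeq2 gave it an adjusted p of 0.0369 over all mice. The kinase of the noncanonical NF-kB pathway, Map3k14, was at -0.42 (SE 0.17, adjusted p = 0.353), and its subunits Relb and Nfkb2 were at -0.33 (adjusted p = 0.414) and -0.25 (adjusted p = 0.576). The 2 highest were Ltbr, the lymphotoxin beta receptor, with 0.04 and the kinase Map3k7 with -0.05. In 8 of the 25 genes r with Cd79a passed with a positive sign, beside the same 6.71% of all genes, among them Tnfsf11 with r = 0.915 and Ltb with 0.959.

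**Figure D5:**
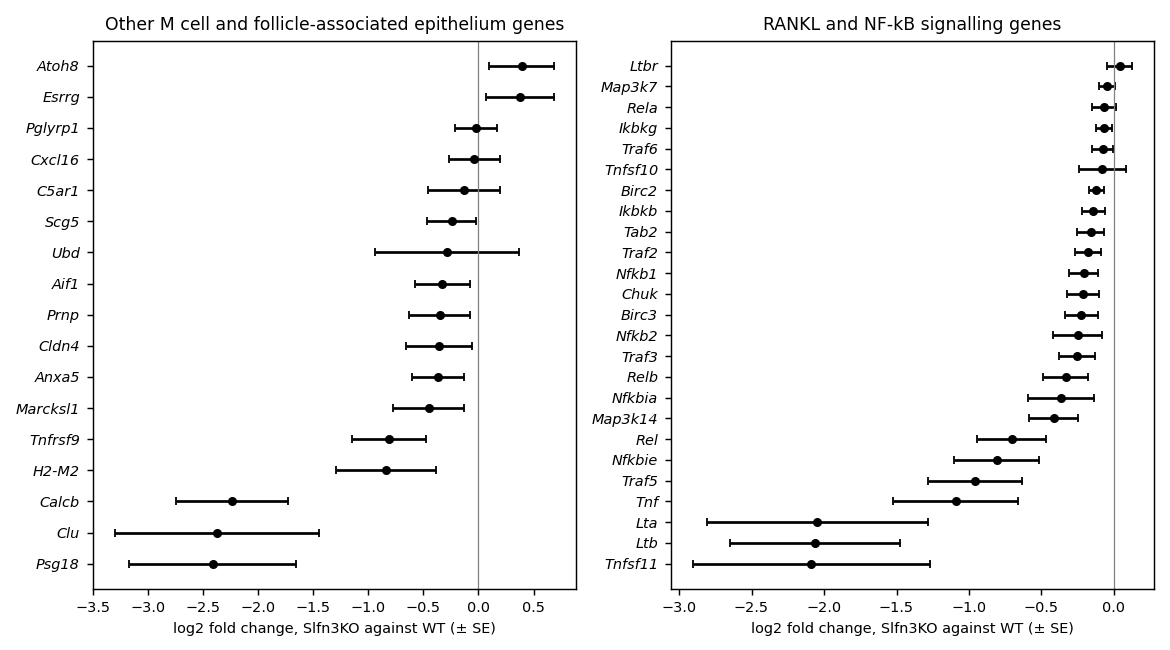
Log2 fold change of Slfn3KO against WT in the pooled comparison for the 17 other M cell and follicle-associated epithelium genes tested and the 25 genes of RANKL and NF-kB signalling, with bars of 1 standard error. Psg18, Clu, Calcb, Tnfsf11, Ltb and Lta lie near or below -2, and the other genes lie closer to 0.

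The receptors of both chemokines were tested as well. Ccr6, the receptor of Ccl20, was 0.0360 to 2.52 CPM in Slfn3KO and 0.0334 to 19.8 CPM in WT mice, with a log2 fold change of -2.85 (SE 1.07, adjusted p = 0.334 by edgeR). Ccr1, a receptor of Ccl9, was at -0.67 (SE 0.42, adjusted p = 0.541 by edgeR). Ccr6 followed Cd79a with r = 0.973 and Ccr1 with r = 0.751. Both fold changes were positive with the Cd79a covariate, at 0.45 and 0.16, and without the WT libraries 3 and 4, at 1.33 and 0.43.

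Markers of other cell types moved with these genes to different extents in the pooled comparison. All 15 B cell and follicle markers had negative log2 fold changes, 14 of them at an unadjusted p under 0.05, with a median of -3.00 that was 0.08 without the WT libraries 3 and 4. Over all genes 7.10% were lower and 4.84% higher at that level, and 2.84% were higher with the Cd79a covariate. These shares were 3.10% lower and 2.70% higher without the WT libraries 3 and 4. Of 4 plasmacytoid dendritic cell markers tested, 1 was lower at that level and the median was -0.52, and none was lower without these libraries, with a median of -0.22. Of 10 macrophage and dendritic cell markers 1 was lower and the median was -0.15, and without these libraries all 10 were positive, with a median of 0.19 and none past that level. Of 10 markers of stroma and endothelium none was lower or higher, with a median of -0.01. Without the WT libraries 3 and 4, 9 of these 10 were positive, 2 of them at an unadjusted p under 0.05, with a median of 0.68, and with the Cd79a covariate all 10 were positive, 3 of them at that level, with a median of 0.60. Of 12 epithelial markers 1 was higher, with a median of -0.13, and without these libraries 1 was lower, with a median of -0.12. The 2 acinar markers tested, Cela1 and Clps, had a median of 0.55, and 1 was higher, and without these libraries the median was 0.32 and none was higher. None of these genes passed the adjusted threshold by edgeR in the pooled comparison. Their part in the values of the 8 genes was not tested beyond the fits with Cd79a and Ms4a1.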

How the data were processed

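RNA of the ileum mucosa was prepared with a stranded kit and sequenced as single reads. Per the methods, cutadapt trimming was followed by STAR alignment to mm10. The authors deposited unnormalised counts of all 16 libraries in 1 table. The methods name HTSeq as the counter, while the submitters' processing notes name featureCounts 1.4.6 and DESeq2 1.22.2. The deposited table also gives exon length in bases, used here for RPKM. Gene symbols came from GENCODE M21 (45143 of 46078 identifiers) and promoters from RefSeq on GRCm38.p6, where 7 of 8 members had an entry, without Tnfrsf11b.

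For CPM with TMM factors and for the fits, edgeR 4.0.16 was used under R 4.3.3 (filterByExpr by group, robust quasi-likelihood test, Benjamini-Hochberg adjustment over all genes). Each standard error was derived from F, as the size of the log2 fold change over the root of F. A call needed an adjusted p under 0.05 and a change of 1.5-fold. Pooled fits had the labelled sex as a covariate, which goes against the sex transcripts in 4 WT libraries. Without this covariate, 3 of 8 members were lower at an unadjusted p under 0.05 by edgeR (7.25% of all genes) and none was called. Female minus male effects were tested as an interaction term. DESeq2 1.42.0 was an alternative. Correlations used log2 CPM with a prior count of 2, with two-sided permutation tests in numpy 2.4.6 and scipy 1.17.1. Cd79a values were taken as 1 cluster, since the largest gap between neighbouring mice was 1.48 of a range of 8.07 on the log2 scale. Counts per mouse were 20823279 to 30813117. The floor of 3 counts covers counting error only, while the standard errors and SDs also hold variation between mice.

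Groups came from the sample labels. Replicate numbers were compared by the correlation of deviations from group means. For same-numbered mice it was between 0.138 and 0.518 in males and between -0.362 and 0.143 in females. Mice with unlike numbers had values between -0.395 and 0.232 in males and between -0.339 and 0.365 in females. Of 4 male Slfn3KO mice, 2 had their highest value with their own number. The numbers were taken to pair the males only. This pairing is uncertain, and male WT 3 and 4 go against their sex label. The labels name no batch. The chi-square per gene between replicates was at least 24.6. The members and the lists (other M cell genes, RANKL and NF-kB signalling, chemokine receptors and markers of B cells, plasmacytoid dendritic cells, macrophages, acinar cells, stroma and epithelium) were chosen with earlier results of these data known. Named genes were the 8 members, Cd79a, Slfn3, the sex transcripts, Tnfsf11, Map3k14, Relb, Nfkb2, Ccr6, Ccr1, the 2 lowest and 2 highest of each list and the 3 genes most like each member. On simulated counts edgeR recovered 78% of 2-fold and 94% of 4-fold changes in the pooled comparison of 14622 genes. Each simulated gene was drawn independently around a mean shared by all mice. The simulations thus hold no differences between mice that many genes share, and their rates may not hold for the real counts.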

Additional observations from a re-analysis of the deposited data

How the results depend on the processing

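Most values kept their direction and their side of the threshold, and those that did not are given here. No member of the pooled, male or female comparison or of the difference between the sexes passed the adjusted threshold under any edgeR setting, and under DESeq2 2 members passed in the pooled comparison and 2 in females.

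Counts of members are given here with the share of all genes in the same fit in brackets, except where single mice were left out. The pooled count of members lower at an unadjusted p under 0.05 was 3 (7.10%). It was 1 with at least 10 counts in every mouse (6.40%), where Gp2, Sox8 and Tnfrsf11b were not tested. It was 0 without the WT libraries 3 and 4 (3.10%), and 1 when log2 Cd79a CPM was a covariate as well (3.47%). It ranged from 3 to 5 as each mouse was left out, with 5 without male Slfn3KO 2. In males the count was 0 (1.98%), and 2 with no filter (1.74%) and with all 4 groups in one fit (2.91%), where Gp2 and Sox8 were tested. It ranged from 0 to 1 as each mouse was left out, with 1 without male Slfn3KO 1, male Slfn3KO 2, male WT 1 or male WT 2. In females it was 2 (8.56%), and 1 with at least 10 counts in every mouse (8.95%) and without the WT libraries 3 and 4 (11.8%). The female count ranged from 2 to 5 as each mouse was left out, with 4 without female Slfn3KO 4 and 5 without female WT 1. For the difference between the sexes it was 0 (5.26%), and 1 without the WT libraries 3 and 4 (12.5%). Over all genes edgeR called 0 for that difference, and 359 without these libraries.

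In fits blocked on replicate number the male count was 1 (Tnfrsf11b, log2 fold change -0.84), beside 3.24% of all genes. The female count was 1 (4.67%), the pooled count stayed at 3 (6.62%), and no member was called. The difference of Gp2 between the sexes was then -0.55 in place of 0.05.

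Without the WT libraries 3 and 4 these pooled log2 fold changes turned: Spib 0.22, Ccl20 0.33, Tnfaip2 0.33, Tnfrsf11b 0.33, Ccr6 1.33, Ccr1 0.43, Esrrg -0.051 and Ltbr -0.078. In males Spib was 1.28, Ccl20 0.53 and Tnfaip2 0.39, in females Ccl20 was 0.12 and Tnfaip2 0.28, and for the difference between the sexes Gp2 was -3.54 and Tnfaip2 -0.092. With the Cd79a covariate Tnfaip2 was 0.055, Tnfrsf11b 0.086, Ccr6 0.45, Ccr1 0.16 and Ltbr -0.022. The fits with Ms4a1, and with Cd79a without the WT libraries 3 and 4, were chosen after seeing the data. With Ms4a1 Tnfaip2 was 0.0029, Tnfrsf11b 0.035, Ccr6 0.20, Ccr1 0.12 and Ltbr -0.015. With Cd79a and without these libraries Spib was 0.21, Ccl20 0.32, Tnfaip2 0.31, Tnfrsf11b 0.37, Ccr6 0.95, Ccr1 0.41, Esrrg -0.085 and Ltbr -0.076. The cause was not tested.

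As each mouse was left out, the pooled value of Tnfrsf11b ranged from -0.40 to 0.020 and that of Ltbr from -0.0068 to 0.10. The male values ranged from -1.31 to 0.37 for Ccl20, from -0.33 to 0.090 for Ccl9, from -1.11 to 0.20 for Tnfaip2 and from -0.11 to 0.0078 for Tnfrsf11a. The difference between the sexes ranged from -1.05 to 0.95 for Gp2, from -1.95 to 0.10 for Spib, from -1.54 to 0.11 for Ccl20, from -0.88 to 0.45 for Tnfaip2 and from -1.90 to 0.38 for Sox8. The relation of members to Cd79a passed for 3 to 4 of them, with 3 without male WT 3, where r of Tnfaip2 was 0.705. Counts of 1 to 7 for Sox8 in Slfn3KO mice and of 2 for Gp2 in 3 of them limit the precision of both fold changes.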
